A study of Mus musculus with 12 samples.

Results

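The transcripts of 9 mouse cytokine genes were followed in tumour-associated macrophages (TAMs), which are macrophages isolated from a tumour mass: Il12a, Il12b, Il23a, Il27, Ebi3, Il6, Il10, Il15 and Tnf. The genes were taken as a fixed list of the interleukin-12 family with 4 other macrophage cytokines, were found by Ensembl identifier, and are 9 of the 36439 genes in each count table. RNA was sequenced in 12 libraries, 3 for each of 4 groups, from TAMs of C57BL/6 mice that carried subcutaneous Lewis lung carcinomas, tumours of a transplantable mouse lung cancer line. The groups were F4/80+MRC1+ TAMs, F4/80+CD11c+ TAMs, F4/80+ TAMs overexpressing the microRNA miR-511-3p, and F4/80+ TAMs overexpressing a mutated miR-511-3p, called miR-511-3p-mut TAMs here. F4/80, encoded by Adgre1, is a surface protein of mouse macrophages, MRC1 is the macrophage mannose receptor and CD11c is an integrin that dendritic cells also carry. The overexpression constructs are named with the prefix SFFV, which in vector names usually stands for the promoter of the spleen focus-forming virus, active in many blood cells. The sources used here give no age of the mice, do not say whether animals were pooled, and do not say whether the numbered libraries of a group came from separate animals, so a p-value here covers the spread of these libraries alone, and that spread may be technical.

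Interleukin-12 family cytokines are heterodimers whose chains are shared. The p40 chain, encoded by Il12b, pairs with the p35 chain of Il12a to form IL-12, which drives interferon-gamma production by T and NK cells, and with the p19 chain of Il23a to form IL-23, which sustains T helper cells that make IL-17. The p28 chain of Il27 pairs with the chain of Ebi3 to form IL-27, and Ebi3 with Il12a forms IL-35. Tnf and Il6 encode inflammatory cytokines that macrophages make within hours of activation, Il10 encodes an inhibitory cytokine that lowers production of the others, and Il15 encodes a growth factor of NK and memory T cells. Many of these messages carry AUUUA pentamers in the 3′ UTR, which RNA-binding proteins such as tristetraprolin recognise to speed their decay.

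The mature miR-511-3p sequence is shown because it defines the overexpression comparison, with its seed, bases 2 to 8, in capitals. It lies at chr2:14261051-14261072 on the plus strand of GRCm38.p6 in RefSeq.

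mmu-miR-511-3p: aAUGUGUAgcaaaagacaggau

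The 3′ UTRs of all 9 cytokine genes, taken from GENCODE M21 on GRCm38, held no 8mer or 7mer match to this seed, whose 7-base complement reads TACACAT. Of 19686 mouse 3′ UTRs searched in the same way, the longest of each gene, 20.1% held at least 1 such match. That share was not matched for length. The 3′ UTRs of the cytokine genes ran from 245 bases in Ebi3 to 1668 in Il6. Only that of Il6 was longer than the median of 1124 bases over all 3′ UTRs, and shorter ones leave less room for a match. The pentamer AUUUA was present in the 3′ UTRs of 8 of the cytokine genes and absent from that of Il15. Il6 held 10 copies, Tnf 8, Il12a, Il12b, Il23a and Il10 6 each, Il27 5 and Ebi3 1. Per kilobase of 3′ UTR this came to 17.5 copies in Il27, 12.1 in Il12a, 10.5 in Tnf, 9.13 in Il23a, 8.499 in Il10, 7.53 in Il12b, 6.00 in Il6 and 4.08 in Ebi3, against a median of 1.18 over all 3′ UTRs, of which 66.6% held at least 1 copy. The 30-base stretches richest in the pentamer are shown for Tnf, Il12b, Il6 and Il23a, genes described most closely below, as DNA letters with ATTTA in capitals.

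Tnf: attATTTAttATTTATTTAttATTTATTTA
Il12b: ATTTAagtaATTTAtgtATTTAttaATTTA
Il6: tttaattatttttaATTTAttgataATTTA
Il23a: agtatagatgatggttATTTAttctATTTA

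The stretch of Tnf held 5 pentamers, that of Il12b 4 and those of Il6 and Il23a 2 each. Overlapping copies share letters in Tnf. The nonamer UUAUUUAUU, a longer form of the element, occurred in 5 copies in Tnf, in 2 copies in Il27 and in 1 copy each in Il12a and Il23a, and 7.55% of all 3′ UTRs held it.

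RefSeq promoter windows on GRCm38.p6, 250 bases before to 50 bases after the start, were matched for 5 of the 9 genes. Those of Il12b, Tnf and Il6 are shown because these are among the genes described most closely below. Both strands were searched for an NF-kappaB motif (GGG, any 2 bases, then TTTCC), a C/EBP motif (TTNNGNAAT), an AP-1 motif (TGANTCA), an IRF motif (GAAA, any 2 bases, then GAAA), a PU.1 motif (GAGGAA), a cyclic AMP response element (TGACGTCA) and a TATA box (TATAAA). Capitals mark the matches, none of which overlapped another.

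Il12b promoter, chr11:44399813-44400112, plus strand: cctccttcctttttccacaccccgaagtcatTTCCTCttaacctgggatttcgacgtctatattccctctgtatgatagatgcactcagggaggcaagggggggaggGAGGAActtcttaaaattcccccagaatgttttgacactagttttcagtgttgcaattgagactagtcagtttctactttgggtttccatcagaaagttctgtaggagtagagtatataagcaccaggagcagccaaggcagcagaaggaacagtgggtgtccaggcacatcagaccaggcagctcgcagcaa
Tnf promoter, chr17:35201958-35202257, minus strand: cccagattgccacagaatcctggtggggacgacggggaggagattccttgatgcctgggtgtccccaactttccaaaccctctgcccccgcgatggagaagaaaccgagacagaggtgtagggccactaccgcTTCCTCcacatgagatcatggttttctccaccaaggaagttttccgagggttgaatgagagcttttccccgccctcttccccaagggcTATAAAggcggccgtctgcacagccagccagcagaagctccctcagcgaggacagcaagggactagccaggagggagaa
Il6 promoter, chr5:30012864-30013163, plus strand: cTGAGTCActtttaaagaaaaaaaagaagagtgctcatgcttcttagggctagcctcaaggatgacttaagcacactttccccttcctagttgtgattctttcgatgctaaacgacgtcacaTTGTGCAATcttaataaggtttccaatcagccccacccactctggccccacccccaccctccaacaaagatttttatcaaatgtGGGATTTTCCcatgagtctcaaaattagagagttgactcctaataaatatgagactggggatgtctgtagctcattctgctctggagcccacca

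The Il6 window held an NF-kappaB match 44 bases before the start, a C/EBP match 128 bases before it and an AP-1 match 249 bases before it. Of 32851 mouse promoter windows, 1.63% held the NF-kappaB motif, 11.5% the C/EBP motif and 7.81% the AP-1 motif. The Il12b window held PU.1 matches 219 and 143 bases before the start, and the Tnf window a PU.1 match at 117 bases and a TATA box at 29 bases. The PU.1 motif occurred in 28.3% and the TATA box in 13.6% of all windows. These matches describe letters only. Each motif was searched as a fixed pattern, so a window without a match may still hold a site spelled otherwise.

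Counted reads per library ranged from 15664146 to 17689064 in MRC1+ TAMs, 10824918 to 17318957 in CD11c+ TAMs, 23326219 to 27186233 in miR-511-3p TAMs and 22906418 to 27890433 in miR-511-3p-mut TAMs. Levels are CPM, the reads of a gene relative to all counted reads of its library, scaled with edgeR's TMM factors. The sort markers followed the labels: Mrc1 averaged 3777 ± 279 CPM in MRC1+ TAMs against 1615 ± 193 CPM in CD11c+ TAMs, and Itgax, which encodes CD11c, 102 ± 22.1 against 988 ± 56.2 (SD, n = 3 each). Mir511, the hairpin gene of the microRNA, averaged 2.75 ± 0.336 CPM in miR-511-3p TAMs against 0.234 ± 0.138 CPM in miR-511-3p-mut TAMs (SD, n = 3 each). Whether reads of the mutated construct were counted under Mir511 is unknown, so the second value does not measure its expression. Of 6 macrophage genes, 3 rose in MRC1+ TAMs (Adgre1, Mertk and Mrc1), against 6.91% of all genes tested. Csf1r, Fcgr1 and Cd68 did not pass, at log2 fold changes over CD11c+ TAMs of -0.26, -0.38 and 0.19. The 6 genes summed to 6237 to 7040 CPM in MRC1+ TAMs against 3553 to 4539 CPM in CD11c+ TAMs. Mrc1, a marker of the sort, was the largest part of that sum in both groups. Summed transcripts of 7 fibroblast genes were 867, 616 and 814 CPM in the MRC1+ libraries. In CD11c+ TAMs they were 1189 CPM in the first library against 270 and 329 CPM in the second and the third. In bulk libraries fewer cells of a type and less RNA per cell cannot be told apart.

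**Figure D1:**
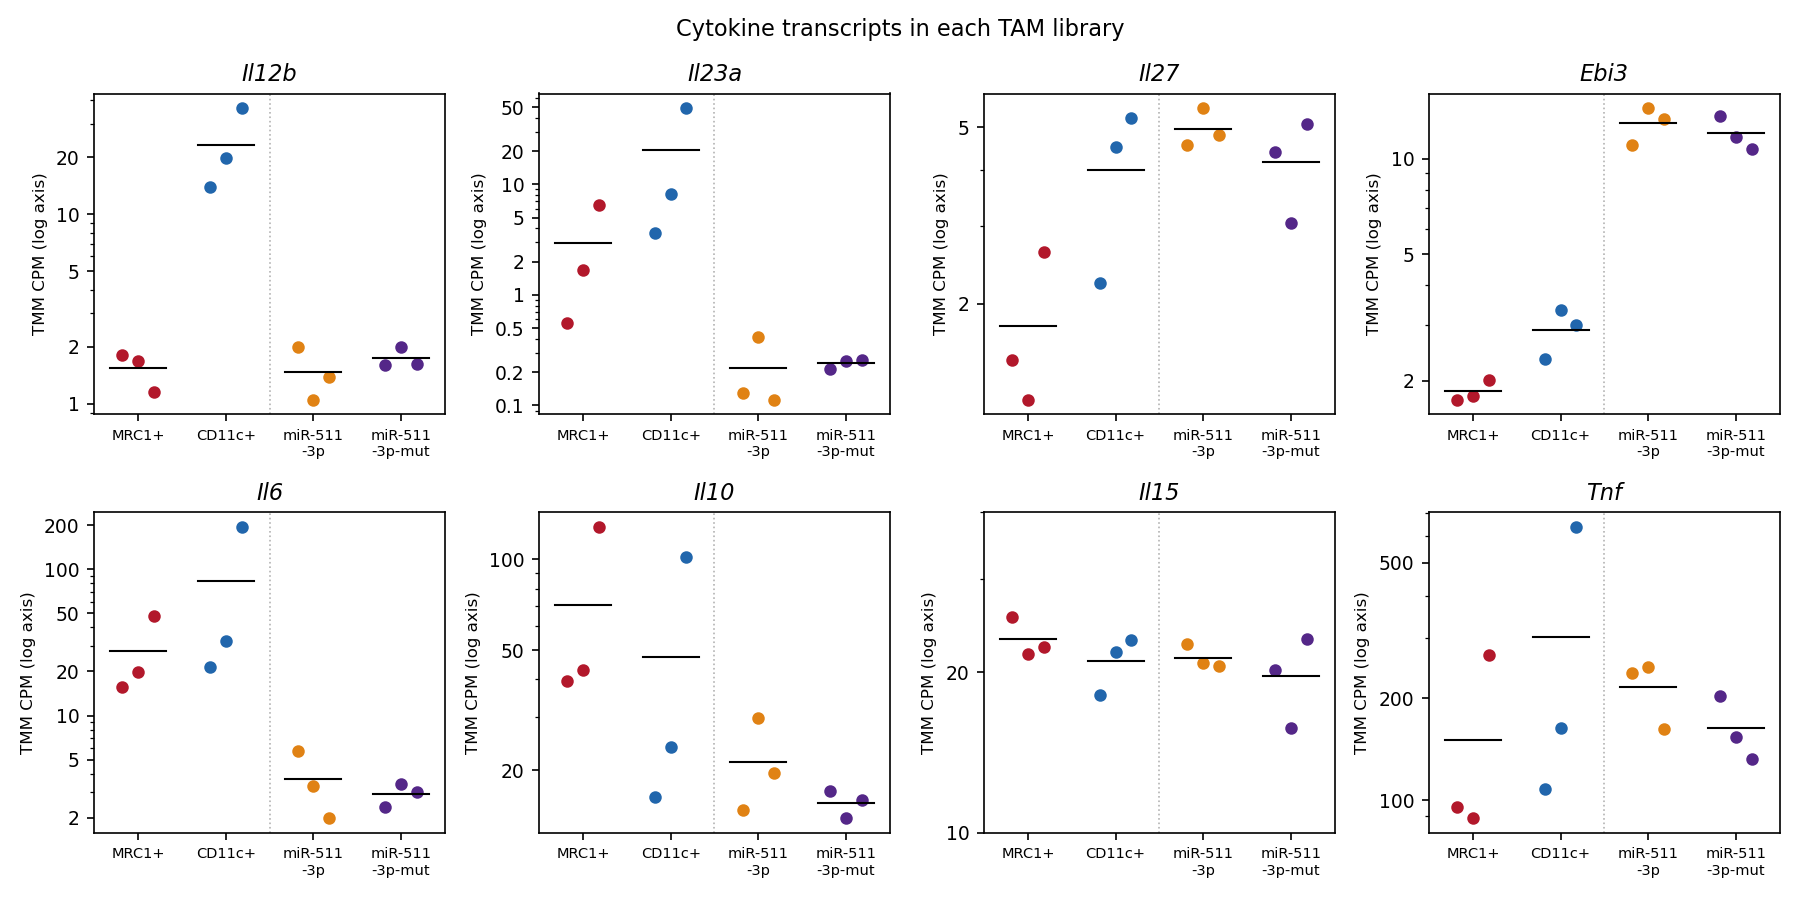
TMM CPM on log axes for 8 cytokine genes, 1 point per library in the order of the replicate numbers, with the mean of 3 libraries as a line in each of the 4 groups. Il12b stood at 1.16 to 1.80 CPM in MRC1+ TAMs and 13.8 to 36.2 CPM in CD11c+ TAMs, and the third library of both sorted groups was the highest for Il23a, Il27, Il6, Il10 and Tnf.

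Levels of different genes were compared as CPM per kilobase of exon. Tnf led in every group, at a mean of 92.0 CPM per kilobase in MRC1+ TAMs, 185 in CD11c+ TAMs, 132 in miR-511-3p TAMs and 99.5 in miR-511-3p-mut TAMs. Il10 came next in every group, at 53.7, 36.2, 16.3 and 11.9 CPM per kilobase in the same order. The ranges of Tnf and Il10 overlapped in both sorted groups and did not overlap in either overexpression group. In MRC1+ TAMs Il6 (11.5) and Il15 (10.2 CPM per kilobase) followed, with overlapping ranges. Il27 (1.74), Ebi3 (1.60), Il23a (1.301) and Il12b (0.788) then formed a low set in which each gene's range overlapped its neighbour's.

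In CD11c+ TAMs Il12b ranked the fourth, at 11.8 CPM per kilobase, between Il6 (34.2) and Il15 (9.28), and no 2 neighbours from Tnf down to Ebi3 (2.50) had separate ranges. The order differed in the F4/80+ overexpression groups. By its mean Ebi3 was the third there, at 11.2 CPM per kilobase in miR-511-3p TAMs and 10.4 in miR-511-3p-mut TAMs. Its range overlapped those of Il10 above and Il15 below in both groups. In the same order of groups, Il6 (1.52 and 1.202), Il12b (0.753 and 0.883) and Il23a (0.0975 and 0.107) stood the lowest apart from Il12a. The sorted and the overexpression libraries differ in gate and depth and were not compared by a test. Il12a, the p35 chain, had 0 reads in MRC1+ TAMs, 1 read in CD11c+ TAMs, 2 in miR-511-3p TAMs and 0 in miR-511-3p-mut TAMs. A count of 0 allows up to 0.0609 CPM in MRC1+ TAMs and 0.0401 CPM in miR-511-3p-mut TAMs, taking 3 reads over the 3 libraries as the floor, or up to 0.0749 and 0.0493 CPM by an exact 95% Poisson interval. That interval was 0.000561 to 0.123 CPM in CD11c+ TAMs and 0.00316 to 0.0943 CPM in miR-511-3p TAMs, and all these limits cover counting error only.

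The first comparison asked how cytokine transcripts differ between MRC1+ and CD11c+ TAMs. Il12b, the shared p40 chain of IL-12 and IL-23, was the cytokine gene that passed the test, and it fell in MRC1+ TAMs. Il12b (ENSMUSG00000004296, chr11:44400063-44414033 on GRCm38) had 1.80, 1.69 and 1.16 CPM in the MRC1+ libraries, from 29, 32 and 19 reads, against 13.8, 19.7 and 36.2 CPM in the CD11c+ libraries, from 236, 331 and 352 reads. The lowest CD11c+ library lay above every MRC1+ library. The log2 fold change was -3.88 ± 0.39 SE, or 14.7-fold lower in MRC1+ TAMs (adjusted p = 0.000533, quasi-likelihood test of edgeR, Benjamini-Hochberg adjusted over 15622 genes), and it was lower in 3 of 3 same-numbered pairs, by 7.67-fold to 31.3-fold.

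Of the 8 cytokine genes that passed the filter on low counts, 1 was called, against 16.6% of all genes tested and 9.71% called lower and 6.91% higher in MRC1+ TAMs. The libraries of both groups did not overlap for 2 of the 8, Il12b and Ebi3, against 38.3% of all genes. The median log2 fold change of the 8 was -1.08, beside 0.01 over all genes tested. At an unadjusted p of 0.05, 4 of the 8 and 33.3% of all genes passed. The labels number the libraries 1 to 3 in each group, and same-numbered libraries deviated together from their group means, so a fit with the number as a block was set beside the main one. With that block 6 of the 8 passed, 5 of them lower and 1 higher in MRC1+ TAMs, against 17.8% of all genes, 10.6% lower and 7.24% higher. Without the first CD11c+ library 4 of the 8 passed (Il12b, Il23a, Il27 and Ebi3), against 29.6% of all genes in that fit, and DESeq2 called 2 (Il12b and Il27), against 17.5%. Without the third library of both groups 2 passed, Il12b lower and Il10 higher, against 6.01% of all genes. With the block added Il23a passed too, making 3, against 6.43%.

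Il23a, Il27 and Ebi3, the other IL-12 family chains tested, lay lower in MRC1+ TAMs in all 3 pairs and did not pass without the block. Il12a missed the filter. Il23a, the p19 chain of IL-23, had 0.560, 1.69 and 6.52 CPM in the MRC1+ libraries against 3.63, 8.16 and 49.0 CPM in the CD11c+ libraries. In both groups the third library was the highest, and the third MRC1+ library exceeded the first CD11c+ library. Its log2 fold change was -2.75 ± 1.05 SE (adjusted p = 0.111, edgeR) and -2.66 ± 0.18 with the block (adjusted p = 0.000514), 4.84-fold to 7.51-fold lower within the pairs. Leaving out 1 library at a time without the block gave log2 fold changes of -4.09 without the third MRC1+ library (edgeR adjusted p = 0.0975) to -1.004 without the third CD11c+ library (edgeR adjusted p = 0.458). Il27, the p28 chain, had 1.49, 1.21 and 2.62 CPM in MRC1+ TAMs against 2.23, 4.53 and 5.25 CPM in CD11c+ TAMs. The groups overlapped through the third MRC1+ and the first CD11c+ library, and the log2 fold change was -1.15 ± 0.39 SE (adjusted p = 0.0825, and 0.0381 with the block, edgeR). Apobr overlaps Il27 on the opposite strand, and since strand use in counting is unknown, whether reads of the shared stretch were assigned to either gene is too. Apobr averaged 36.7 ± 2.09 CPM in MRC1+ TAMs against 49.6 ± 2.97 CPM in CD11c+ TAMs (SD, n = 3 each).

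Ebi3, the partner chain of IL-27, had 1.74, 1.79 and 2.01 CPM in MRC1+ TAMs against 2.34, 3.34 and 2.98 CPM in CD11c+ TAMs. Its groups did not overlap, yet its log2 fold change of -0.64 ± 0.22 SE did not pass with or without the block (adjusted p = 0.0858 and 0.0848, edgeR). An antisense gene overlaps Ebi3, with the same limit.

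For Tnf, Il6 and Il10 the third library was the highest of each sorted group, and the groups overlapped. Tnf (chr17:35199381-35202007) had 95.5, 88.6 and 268 CPM in MRC1+ TAMs against 108, 163 and 639 CPM in CD11c+ TAMs. The third MRC1+ library exceeded the first and the second CD11c+ library, and within the pairs Tnf was 1.13-fold to 2.38-fold lower in MRC1+ TAMs. Its log2 fold change was -1.005 ± 0.68 SE (adjusted p = 0.340, edgeR) and -0.78 ± 0.19 with the block (adjusted p = 0.0409). Il6 (chr5:30013114-30019981) had 15.6, 19.7 and 48.1 CPM in MRC1+ TAMs against 21.5, 32.3 and 195 CPM in CD11c+ TAMs, with the groups overlapping. Its log2 fold change was -1.56 ± 0.81 SE (adjusted p = 0.218, edgeR) and -1.10 ± 0.29 with the block (adjusted p = 0.0489). Without the third CD11c+ library alone the log2 fold changes were 0.17 for Tnf and 0.058 for Il6.

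Il10 (chr1:131019845-131024974), the inhibitory cytokine, lay the other way. It had 39.6, 43.0 and 128 CPM in MRC1+ TAMs against 16.2, 23.8 and 102 CPM in CD11c+ TAMs. The first and the second MRC1+ library stood above the first and the second CD11c+ library, while the third CD11c+ library exceeded both. Il10 was 1.26-fold to 2.44-fold higher within the 3 pairs, and its log2 fold change was 0.60 ± 0.71 SE (adjusted p = 0.597, edgeR) and 0.80 ± 0.18 with the block (adjusted p = 0.0268). Without the third library of both groups Il10 passed, at 1.04 ± 0.19 SE (adjusted p = 0.0262, edgeR), an alternative chosen after the data were seen, and without the third MRC1+ library alone the log2 fold change was -0.18. Il15, the NK and memory T cell factor, had 25.4, 21.7 and 22.3 CPM in MRC1+ TAMs against 18.1, 21.8 and 23.1 CPM in CD11c+ TAMs. Its log2 fold change of 0.14 ± 0.12 SE did not pass (adjusted p = 0.458, edgeR), and its libraries stayed within 18.1 to 25.4 CPM.

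**Figure D2:**
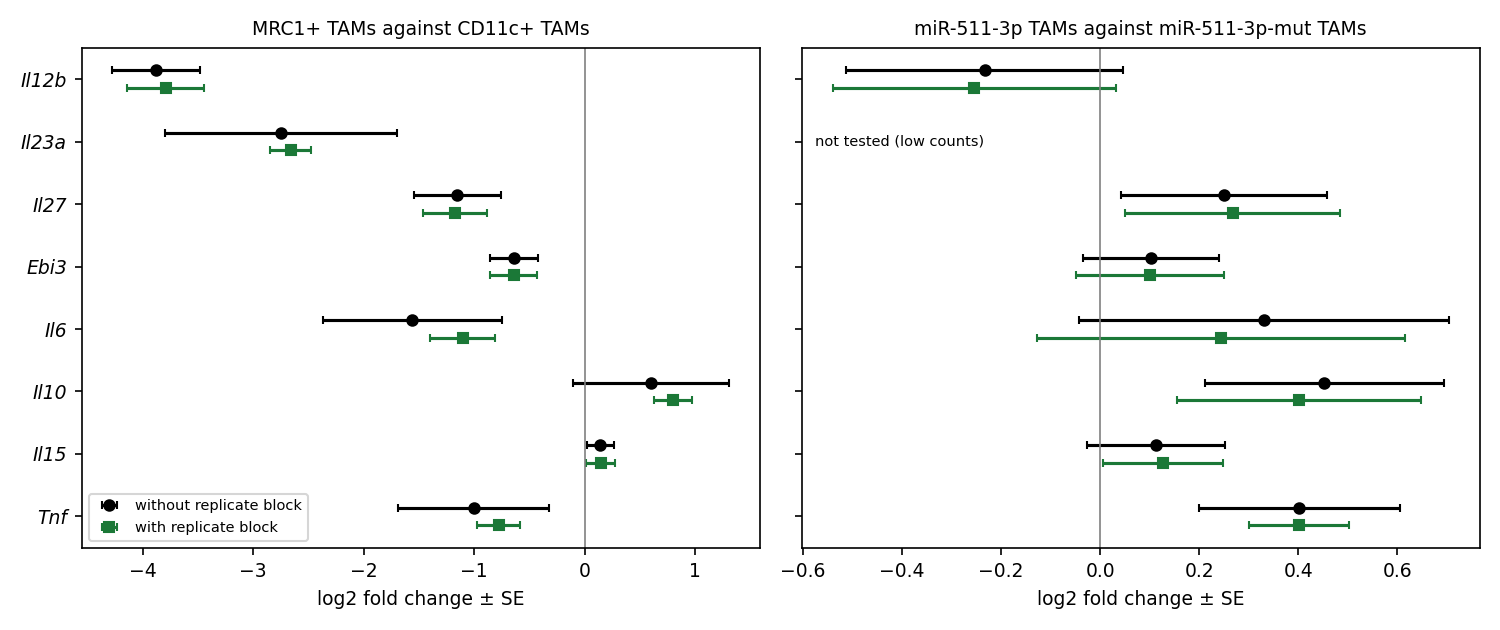
Log2 fold change with SE as the error bar for each cytokine gene tested, MRC1+ TAMs over CD11c+ TAMs in 1 panel and miR-511-3p TAMs over miR-511-3p-mut TAMs in the other, without and with the replicate block. The axes of the panels differ in range. The estimate of Il23a has an SE of 1.05 without the block and 0.18 with it, while Il12b is at -3.88 and -3.79.

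Markers of dendritic cells moved with Il12b. Of the macrophage genes, Adgre1, Mertk and the sort marker Mrc1 moved the other way. Csf1r and Fcgr1 lay lower in MRC1+ TAMs, as Il12b did, and Cd68 higher, all without passing. Of 7 dendritic cell genes, 6 fell in MRC1+ TAMs and 0 rose, against 9.71% lower and 6.91% higher over all genes tested. Their summed level was 23.9 to 26.7 CPM in MRC1+ TAMs against 147 to 226 CPM in CD11c+ TAMs. Flt3, a growth factor receptor of dendritic cells, averaged 1.22 ± 0.390 CPM in MRC1+ TAMs against 25.5 ± 11.3 CPM in CD11c+ TAMs, and Zbtb46, a transcription factor of classical dendritic cells, 11.3 ± 1.64 against 29.7 ± 6.01 (SD, n = 3 each). Of 8 genes of mature migratory dendritic cells, Ccr7, Ccl22 and Ccl17 fell. The summed level was 485 to 738 CPM in MRC1+ TAMs against 750 to 1546 CPM in CD11c+ TAMs. Most of that sum was Cd83, which did not pass, at means of 477 CPM in MRC1+ TAMs and 712 CPM in CD11c+ TAMs. Cd83 averaged 562 CPM in miR-511-3p TAMs and 510 CPM in miR-511-3p-mut TAMs, where Ccr7 averaged 3.12 and 4.35 CPM. No gene of either list was at 0 reads in a sorted library. Their part in the difference of Il12b was not tested. Among 14364 genes with at least 1 CPM in a group, the 3 whose pattern over the 12 libraries was most like that of Il12b were Ramp3, Htr7 and Flt3. Their root mean square differences from it on the log2 scale were 0.258, 0.283 and 0.290, with each profile centred within the sorted and within the overexpression libraries. Ramp3 averaged 1.39 CPM in MRC1+ TAMs against 23.4 CPM in CD11c+ TAMs, and Htr7 3.89 against 48.2 CPM.

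In both sorted groups the third library stood at least 2-fold above the mean of the others for 4 of the 8 cytokine genes tested. Il23a was 5.80-fold above the mean of the first and the second library in MRC1+ TAMs and 8.31-fold in CD11c+ TAMs. The ratios were 2.72 and 7.25 for Il6, 3.11 and 5.10 for Il10, and 2.91 and 4.71 for Tnf. The same limit was reached in both groups by 43 of the 15622 genes tested, or 0.275%. Il27 was also highest in the third library of both groups, with ratios of 1.94 in MRC1+ TAMs and 1.55 in CD11c+ TAMs. Il12b reached 2-fold in CD11c+ TAMs, at 2.16, and not in MRC1+ TAMs, at 0.664, and the ratios of Ebi3 and Il15 lay between 0.948 and 1.16 in both groups. No cytokine gene reached 2-fold in both overexpression groups, where 1.94% of genes did.

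Other values moved with these libraries. Summed transcripts of 8 immediate-early genes, which rise when cells are handled or activated, were 2454, 2041 and 3423 CPM in MRC1+ TAMs and 2433, 2245 and 3771 CPM in CD11c+ TAMs. The third CD11c+ library was also the shallowest, at 10824918 counted reads. The 8 genes of mature migratory dendritic cells summed to 485, 492 and 738 CPM in MRC1+ TAMs and 750, 826 and 1546 CPM in CD11c+ TAMs. Cd83 made up most of these sums. The part of these values in the cytokine levels was not tested.

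**Figure D3:**
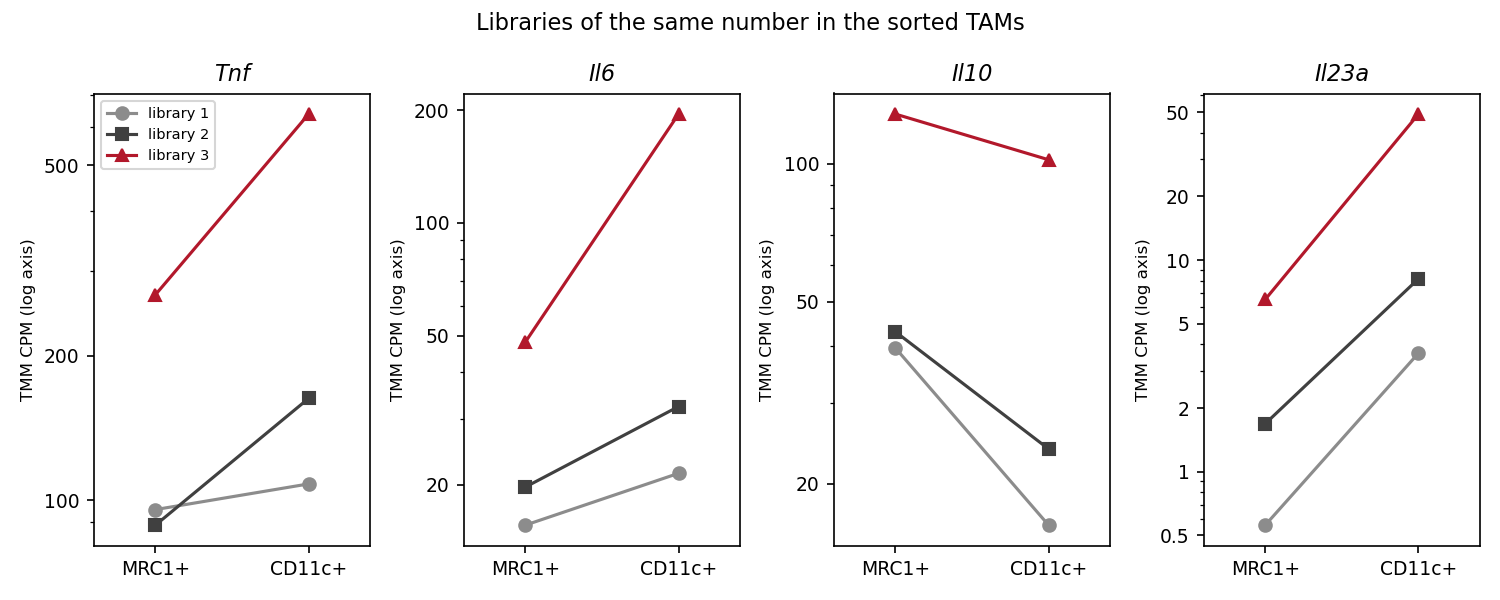
TMM CPM on log axes in the MRC1+ library and the CD11c+ library of each number, joined by a line per pair. The lines of Il23a, Il6 and Il10 lie apart by pair, while for Tnf the lines of the first and the second pair cross. The third pair is the highest for each gene, and Il10 is the gene whose 3 lines all stand higher on the MRC1+ side.

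Receptor and signalling genes of these cytokines were counted from lists. Over all genes tested, 9.71% were called lower and 6.91% higher in MRC1+ TAMs, with a median log2 fold change of 0.01. With the block 10.6% were called lower and 7.24% higher. These values over all genes stand beside every list below for this comparison. Of 13 receptor subunits 12 were tested, 3 fell in MRC1+ TAMs and 0 rose, with a median log2 fold change of -0.33. Il10ra, the ligand-binding chain of the IL-10 receptor, averaged 230 ± 12.7 CPM in MRC1+ TAMs against 473 ± 119 CPM in CD11c+ TAMs (SD, n = 3 each; log2 fold change -1.04 ± 0.17 SE, adjusted p = 0.00559, edgeR). Tnfrsf1b, the second TNF receptor, had a log2 fold change of -0.63 ± 0.16 (adjusted p = 0.0305, edgeR), which missed the threshold without any one of 5 of the 6 libraries. Il6ra, at -0.29 ± 0.08 (adjusted p = 0.0339), missed it with the block (adjusted p = 0.0513) and without any one of 5 libraries. Of 11 kinases, STATs and SOCS genes, 7 fell and 0 rose, with a median of -0.52 and with 9 lower under the block. Stat4, which transmits IL-12 signals, averaged 10.8 ± 1.51 CPM in MRC1+ TAMs against 41.7 ± 8.66 CPM in CD11c+ TAMs (SD, n = 3 each; -1.95 ± 0.18 SE, adjusted p = 0.000345, edgeR). Jak2, a kinase of the IL-12, IL-23 and interferon-gamma receptors, averaged 129 ± 6.21 CPM in MRC1+ TAMs against 309.1 ± 62.9 CPM in CD11c+ TAMs (-1.27 ± 0.14, adjusted p = 0.000926). The partner kinase Tyk2 (-0.52 ± 0.10, adjusted p = 0.0117) and Stat5b (-0.32 ± 0.07, adjusted p = 0.0240) also fell, the call of Stat5b being lost without any one of 5 libraries.

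Of 15 transcription factors and cofactors of cytokine genes, 7 fell, 1 rose and the median was -0.55. Maf, which in macrophages activates Il10 and represses Il12b, was the one that rose, averaging 467 ± 61.3 CPM in MRC1+ TAMs against 256 ± 36.9 CPM in CD11c+ TAMs (SD, n = 3 each; 0.86 ± 0.14 SE, adjusted p = 0.00443, edgeR). Irf5, an activator of Il12b, averaged 146 ± 2.13 CPM in MRC1+ TAMs against 267 ± 39.0 CPM in CD11c+ TAMs (-0.88 ± 0.11, adjusted p = 0.00177). Nfil3, at -1.27 ± 0.18 (adjusted p = 0.00250), is known to repress Il12b, and Batf3, at -1.47 ± 0.21 (adjusted p = 0.00270), is needed for a class of dendritic cells. Rel, the NF-kappaB subunit that Il12b needs in mouse macrophages, was named after its values were seen. It averaged 51.6 ± 14.1 CPM in MRC1+ TAMs against 142 ± 43.2 CPM in CD11c+ TAMs (-1.45 ± 0.26, adjusted p = 0.00835). Of 9 genes that control cytokine messages or their release, 0 passed, with a median of -0.26, and with the block Zc3h12a, Tnfaip3 and Furin were called lower. Zc3h12a, the endonuclease Regnase-1 that degrades Il6 and Il12b messages, had a log2 fold change of -0.76 ± 0.26 SE (adjusted p = 0.0792, and 0.00849 with the block).

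**Figure D4:**
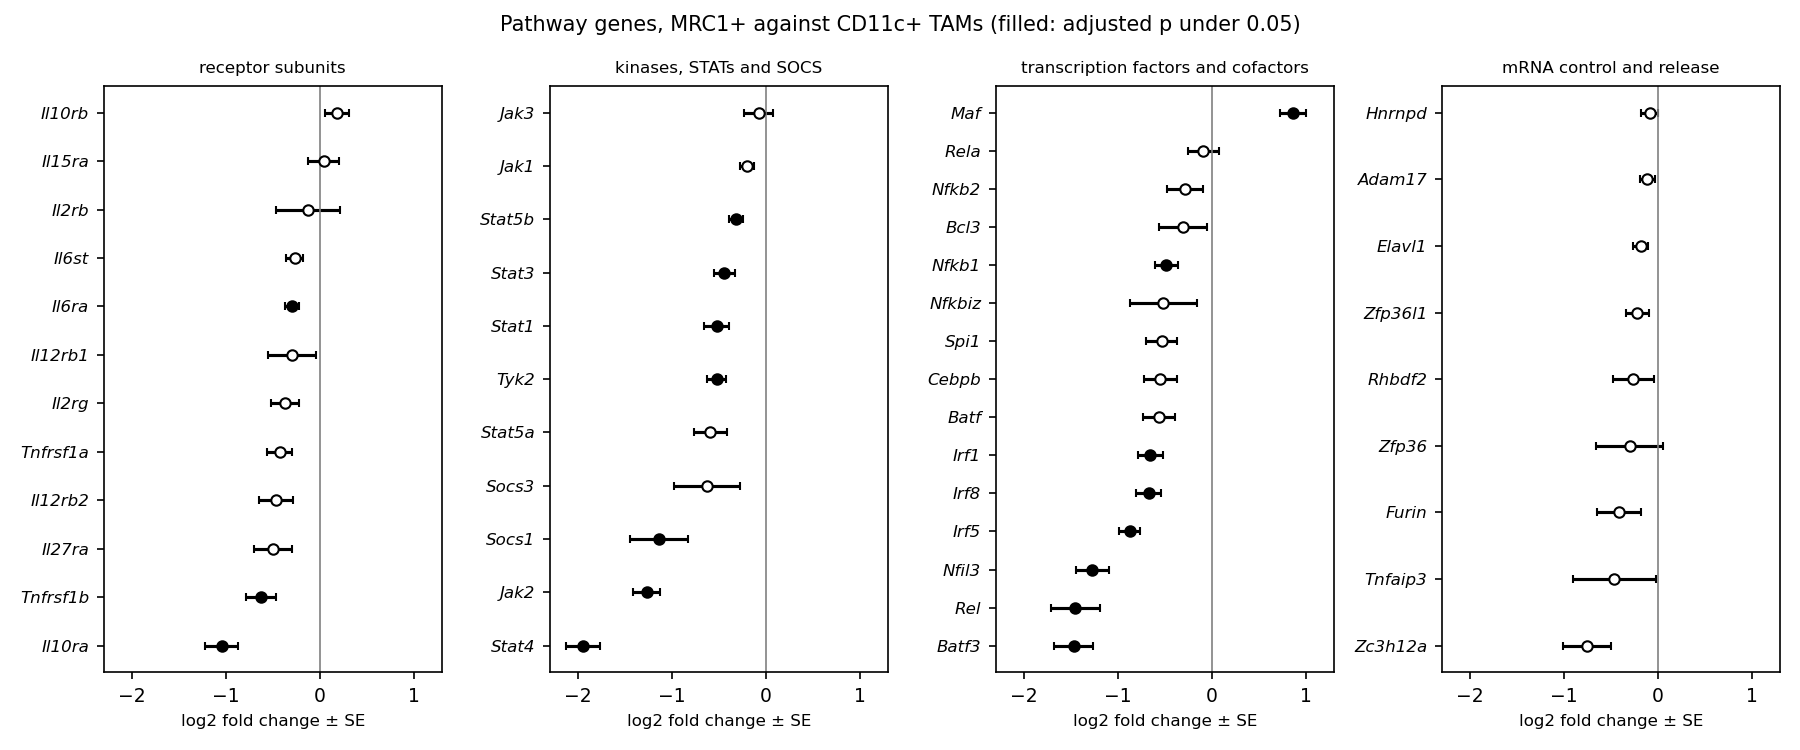
Log2 fold change of MRC1+ TAMs over CD11c+ TAMs for each tested gene of the 4 pathway lists, with filled points for genes that passed an adjusted p of 0.05 in edgeR's test. Maf is the filled point above 0, at 0.86, and Stat4 the lowest, at -1.95.

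The second comparison asked what overexpression of miR-511-3p does to these transcripts relative to its mutated form. Il12a and Il23a missed the filter on low counts, and of the 7 cytokine genes tested 0 passed (edgeR), against 0 of 14054 genes, or 0.0%. At an unadjusted p of 0.05, 0 of the 7 and 343 of all genes, or 2.44%, passed, and DESeq2 called 0 of the 7. With the replicate block 0 cytokine genes and 0.00712% of all genes passed. No cytokine gene had separate groups, against 6.38% of all genes (2.79% higher and 3.59% lower), and the median log2 fold change of the 7 was 0.25, beside 0.00 over all genes.

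Tnf had 238, 247 and 163 CPM in miR-511-3p TAMs against 203, 154 and 132 CPM in miR-511-3p-mut TAMs. It was 1.17-fold to 1.61-fold higher in all 3 pairs while the groups overlapped, and its log2 fold change of 0.40 ± 0.20 SE did not pass (adjusted p = 0.9999, and 0.432 with the block, edgeR). Il10 had 14.7, 29.7 and 19.6 CPM in miR-511-3p TAMs against 17.1, 13.8 and 15.9 CPM in miR-511-3p-mut TAMs, with the lowest library in the miR-511-3p group. Its log2 fold change was 0.45 ± 0.24 SE, which did not pass. Il6 had 5.74, 3.31 and 1.99 CPM in miR-511-3p TAMs against 2.38, 3.39 and 2.99 CPM in miR-511-3p-mut TAMs, so that the first miR-511-3p library was the highest and the third the lowest.

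Il12b had 2.001, 1.05 and 1.39 CPM in miR-511-3p TAMs, from 46, 28 and 37 reads, against 1.60, 1.99 and 1.62 CPM in miR-511-3p-mut TAMs, from 45, 47 and 38 reads. Its log2 fold change was -0.23 ± 0.28 SE. Il23a stood at 3, 11 and 3 reads in miR-511-3p TAMs against 6 in each miR-511-3p-mut library. Il27 had 4.57, 5.53 and 4.81 CPM in miR-511-3p TAMs against 4.41, 3.05 and 5.08 CPM in miR-511-3p-mut TAMs, and Ebi3 11.0, 14.4 and 13.3 against 13.7, 11.7 and 10.8 CPM. The log2 fold changes of Il27 and Ebi3 were 0.25 ± 0.21 and 0.10 ± 0.14. Il15 had 22.6, 20.8 and 20.5 CPM in miR-511-3p TAMs against 20.3, 15.7 and 23.1 CPM in miR-511-3p-mut TAMs, a log2 fold change of 0.11 ± 0.14. SEs of the 7 genes ran from 0.14 to 0.37 on the log2 scale, which sets the size of difference this comparison could show. No receptor, signalling, transcription factor or mRNA control gene of the lists passed. Dendritic cell genes summed to 10.1 to 16.1 CPM in miR-511-3p TAMs and 10.2 to 17.5 CPM in miR-511-3p-mut TAMs. Fibroblast genes summed to 83.4, 83.0 and 254 CPM in miR-511-3p TAMs against 170, 158 and 636 CPM in miR-511-3p-mut TAMs. Their sum was lower in miR-511-3p TAMs in every same-numbered pair, and the third library was the highest in both groups. Their median log2 fold change was -1.42, and 0 of these genes passed.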

How the data were processed

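RNA of the 12 samples was made into libraries with an Illumina TruSeq kit, per the labels' protocols. The authors deposited whole-number read counts per Ensembl gene for each library, without normalization. HTSeq, Bowtie, SAMtools 0.1.12a, TopHat 1.2.0 and the build mm9 (NCBIM37) are named in the submitters' processing notes. Strand use in counting was not given in the sources used here. The 5 summary entries that name no gene, 23.1% to 44.8% of the entries' and genes' total per library, stayed out of library sizes and tests. Symbols (31819 of 36439 identifiers), exon lengths, gene coordinates and 3′ UTRs came from GENCODE M21 (GRCm38, newer than the build of the counts), and the microRNA and promoter sequences from RefSeq on GRCm38.p6.

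Each comparison used the 6 libraries concerned in the quasi-likelihood test of edgeR 4.0.16 (R 4.3.3), after filterByExpr and TMM scaling. Genes were called at 0.05 after Benjamini-Hochberg adjustment over all genes, and the steps were tested on simulated data. The SE is the absolute log2 fold change over the square root of the F statistic. Alternatives were RLE and upper-quartile scaling, DESeq2 1.42.0, no filter or 5 CPM in 3 libraries, all 12 libraries in 1 fit, a replicate block and leaving out each library. The replicate numbers were checked by correlating, across genes, how far libraries of 1 number lay from their group means. The 3 correlations were 0.104, 0.337 and 0.250 for sorted TAMs and 0.147, 0.258 and 0.462 for overexpressing TAMs, all over 0.1. The first miR-511-3p library correlated more closely, at 0.166, with the second miR-511-3p-mut library. The numbers were therefore used as pairs, on the evidence of the data alone. Every cytokine gene was named, up to 4 genes of lowest p per pathway list, and the 3 genes most like a called cytokine gene, from log2 CPM with a prior count of 2. The members and lists were chosen with earlier results of these data known.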

Additional observations from a re-analysis of the deposited data

How the results depend on the processing

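Il12b was called lower in MRC1+ TAMs under all 15 alternatives run. The number of cytokine genes called in that comparison, 1 in the main fit, was 2 with DESeq2 (Il12b and Il27), 3 with no filter (with Il23a added), 4 with all 12 libraries in 1 fit (with Ebi3 added) and 6 with the replicate block. Over all genes these fits called 17.5%, 11.9%, 20.4% and 17.8%, against 16.6% in the main fit. It ranged from 1 to 4 when 1 library was left out, with 4 without the first CD11c+ library, 2 without the third library of both groups (Il12b and Il10) and 3 when the block was added to that fit. Over all genes the main fit called 2597, the leave-one-out fits 1270 to 4707, and the fits without the third library of both groups 950 and, with the replicate block, 1016. The log2 fold change of Il6 ranged from -2.22 to 0.058, that of Il23a from -4.09 to -1.004, that of Tnf from -1.72 to 0.17 and that of Il10 from -0.18 to 1.82 over the fits without 1 library. The sign turned without the third CD11c+ library for Il6 and Tnf and without the third MRC1+ library for Il10. The cause was not tested. Under miR-511-3p no cytokine gene was called in any alternative, and 1 gene overall was called with DESeq2, 1 with all 12 libraries in 1 fit and 1 with the replicate block. Without 1 library Il6 ranged from -0.14 to 0.63 and Il15 from -0.023 to 0.24. The sign of Il6 turned without the first miR-511-3p library and that of Il15 without the second miR-511-3p-mut library. The pathway genes Il10ra, Stat4, Jak2, Irf5, Nfil3, Maf and Rel passed in all 15 alternatives. Of those named, Il6ra was lost in 11, Stat5b in 8 and Tnfrsf1b in 7, and the call of Tyk2 was lost without the third library of both groups (adjusted p = 0.121, edgeR, and 0.117 with the block). The block changed no other call of a cytokine gene than those given above. Low counts limit Il12a and, in the overexpression groups, Il23a.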

Other observations

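Of the 43 genes at least 2-fold higher in the third library of both sorted groups, the 6 given here were chosen after their values were seen and stand for no tested theme. Ptgs2, the inducible cyclooxygenase, had 594, 645 and 1299 CPM in MRC1+ TAMs and 1425, 1952 and 4472 CPM in CD11c+ TAMs. Il1a, which encodes interleukin-1 alpha, had 90.0, 112 and 318 CPM in MRC1+ TAMs and 112, 160 and 683 CPM in CD11c+ TAMs. Nlrp3, the inflammasome sensor, had 150, 173 and 383 CPM in MRC1+ TAMs and 256, 406 and 801 CPM in CD11c+ TAMs. Tnfaip3, an inhibitor of NF-kappaB signalling, had 698, 747 and 1641 CPM in MRC1+ TAMs and 894, 988 and 2374 CPM in CD11c+ TAMs. Ifnb1, which encodes interferon beta, reached 9.87 CPM in the third MRC1+ library against 5.22 and 2.85 in the others, and 30.2 CPM in the third CD11c+ library against 3.69 and 4.23. Csf3, the granulocyte growth factor, reached 14.1 CPM in the third MRC1+ library and 6.48 CPM in the third CD11c+ library.

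The gene whose pattern over the 12 libraries was most like that of Tnf, and likewise of Il6 and of Il23a, was Tnfsf9, which encodes the ligand of the T cell receptor 4-1BB. Its root mean square differences on the log2 scale were 0.229 from Tnf, 0.346 from Il6 and 0.735 from Il23a. The same search for Il27, Ebi3, Il10 and Il15 gave Mxd1, Grk2, Mir221 and Gtf2a2 as the most alike genes, in that order. All these searches were added after the data were seen. Tnfsf9 had 30.5, 25.5 and 91.1 CPM in MRC1+ TAMs and 51.5, 57.1 and 272 CPM in CD11c+ TAMs.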
